A study of Mus musculus with 18 samples.

Results

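H3K4me2, the dimethylated form of lysine 4 of histone H3, was mapped by ChIP-seq in 3 successive stages of mouse neutrophil differentiation, and the present account concerns the regions that carried a peak in preNeu and in neither of the other stages. They were chosen by their peak calls: a peak of the preNeu list was kept when it shared no base with any peak of the GMP list or of the matNeu list. This rule selected 8470 of the 49578 preNeu regions (17.1%), beside 37643 regions in GMPs and 44094 in matNeu. GMPs (granulo-monocytic progenitors) were sorted from bone marrow of adult C57BL/6 mice of 6 to 12 weeks as lineage-negative cells with c-KIT, CD16/32 and CD34 and without SCA-1. PreNeu are committed neutrophil precursors (Mac-1+, Gr-1+, high c-KIT, intermediate CXCR4 in the methods of the study) and matNeu are mature neutrophils (Siglec-, CXCR2+). All H3K4me2, ATAC-seq and RNA samples were wild type, and CHD4 was mapped in wild type (Gfi1WT) and Gfi1-/- (Gfi1KO) GMPs. Each ChIP and ATAC-seq condition had 1 library, while RNA-seq had 3 libraries per stage, and nothing in the labels says whether these came from separate mice, so that p-values measure the spread between these samples, which may be technical.

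Methylation of H3K4 is laid down by the KMT2 enzymes and removed by demethylases such as KDM1A (LSD1), a partner of the repressor GFI1. The dimethyl mark is found at promoters and, away from them, at enhancers that are active or held ready. PreNeu still divide and make the proteins of the secondary granules, whereas matNeu have left the cell cycle and carry the receptors of circulating neutrophils. CHD4 is the ATPase of the NuRD complex, which slides nucleosomes and carries histone deacetylases.

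The titles and the cell type entries of the labels name different stages for 13 of the 18 samples, and the titles were followed. Known marker genes were arranged as the titles say. H3K4me2 regions covered 84.9, 73.2 and 50.0 kb of 10 GMP marker genes with 2 kb on each side in the GMP, preNeu and matNeu lists. For 10 preNeu marker genes the lengths were 18.05, 104 and 82.1 kb. For 10 matNeu marker genes they were 30.4, 112 and 126 kb. The order at the preNeu markers is also that of the whole lists given below, so it cannot tell preNeu from matNeu. In the RNA the summed level of the preNeu markers ran from 515 to 524 TPM (transcript abundance scaled to length and to the same total in each library) in GMP libraries, from 155010 to 180620 in preNeu and from 5926 to 8841 in matNeu libraries. The depth of the ChIP libraries is not given by the peak lists. The preNeu list was the longest (97.9 Mb covered, against 49.8 Mb in GMPs and 80.4 Mb in matNeu) with the highest median fold enrichment over control (4.55, against 2.89 and 3.78). Their part in the number of preNeu-only regions was not tested.

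Sequence windows at 3 loci are shown on the plus strand of GRCm38 (mm10), as given by RefSeq: the central 300 bp of a preNeu-only region that ranked 3 by H3K4me2 enrichment, and 300 bp around the CHD4 summit of the 2 strongest CHD4 peaks that overlap a preNeu-only region. Both of these summits lie beyond the end of the preNeu-only region, at 65614480 on chromosome 6 and 79299137 on chromosome 17. Their windows show the CHD4 site beside the region and share no base with it. Capitals mark matches, on either strand, to short cores of myeloid transcription factors: AAATCA of GFI1, GAGGAAGT of SPI1 (PU.1), TTGCNNAA of the C/EBP family, TGTGGT of RUNX factors, AANNGAAA of IRF factors, TGANTCA of AP-1 and GGGNGTGG of KLF factors. Matches to different cores may share bases.
Region nearest to Dhrs7b, chr11:60823531-60823830: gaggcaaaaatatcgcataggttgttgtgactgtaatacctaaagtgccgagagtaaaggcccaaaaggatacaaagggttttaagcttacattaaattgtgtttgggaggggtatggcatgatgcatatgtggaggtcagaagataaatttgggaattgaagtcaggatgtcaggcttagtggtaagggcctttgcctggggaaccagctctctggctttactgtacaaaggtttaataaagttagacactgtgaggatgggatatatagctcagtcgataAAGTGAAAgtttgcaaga
CHD4 summit in an intron of Tnip3, chr6:65614330-65614629: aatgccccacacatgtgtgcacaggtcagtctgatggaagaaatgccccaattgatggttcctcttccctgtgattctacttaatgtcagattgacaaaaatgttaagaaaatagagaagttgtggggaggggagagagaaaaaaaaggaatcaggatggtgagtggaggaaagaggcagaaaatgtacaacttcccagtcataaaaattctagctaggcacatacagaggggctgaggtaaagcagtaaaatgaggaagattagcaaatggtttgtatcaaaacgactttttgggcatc
CHD4 summit nearest to Cdc42ep3, chr17:79298987-79299286: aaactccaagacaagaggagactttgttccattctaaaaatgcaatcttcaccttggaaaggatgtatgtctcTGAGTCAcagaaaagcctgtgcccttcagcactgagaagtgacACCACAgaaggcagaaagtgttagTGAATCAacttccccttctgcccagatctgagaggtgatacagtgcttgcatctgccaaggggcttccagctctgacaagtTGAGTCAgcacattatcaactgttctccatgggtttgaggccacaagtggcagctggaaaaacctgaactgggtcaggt
The Dhrs7b window held 1 IRF core. The window at the CHD4 summit near Cdc42ep3 held 3 AP-1 cores and 1 RUNX core. The window at the CHD4 summit in Tnip3 held none of the 7 cores.

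The preNeu-only regions were the weak and narrow end of the preNeu list, which is a description, since the same peak calls chose them. Their median width was 420 bp (quartiles 254 and 654 bp) and their median enrichment 2.80-fold (quartiles 2.58 and 3.12), against 2269 bp and 8.26-fold for the 23450 preNeu regions found at all stages, and 1021 bp and 3.89-fold for the 15428 shared with matNeu alone. Regions found only in GMPs (8381) or only in matNeu (3534) were similarly narrow, with medians of 442 and 332 bp. A −log10 q of 5 or more was reached by 326 preNeu-only regions (3.85%) but by 88.3% of those found at all stages. PreNeu-only regions made up 61.0% of the lowest decile of the preNeu list by fold, 7.30% of the fifth decile and 0% of the top 2 deciles. The number depends on how the lists are cut: it was 7064 with all 3 lists held to a −log10 q of 5, 3758 with equal numbers of regions per list and 117 with lists of equal covered length.

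**Figure D1:**
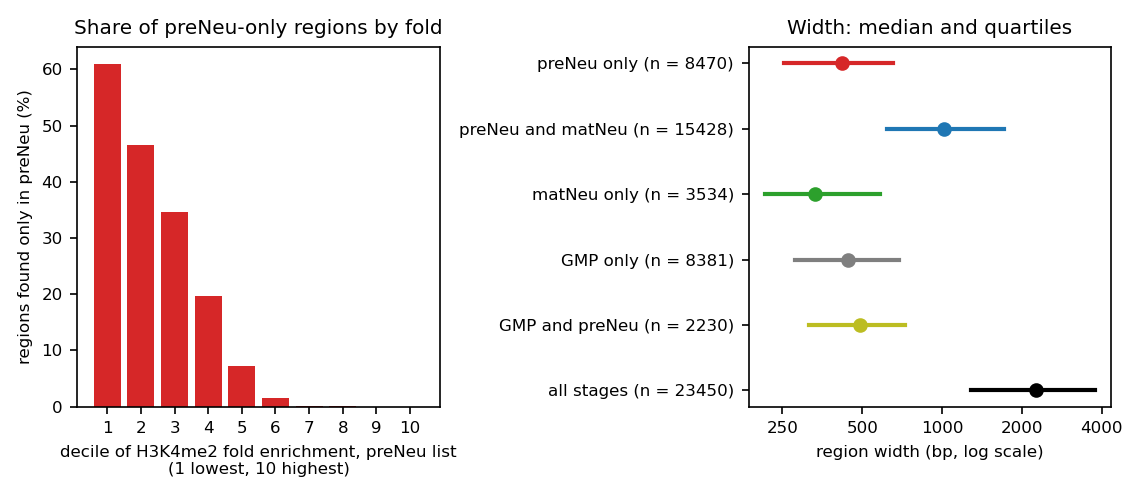
Left, the percentage of preNeu H3K4me2 regions found only in preNeu (y axis) in each decile of the list by fold enrichment (x axis). Right, median (point) and quartiles (line) of region width in bp on a log axis for 6 classes of regions; the preNeu-only median of 420 bp lies near those of the GMP-only and matNeu-only classes and below those of the classes shared with matNeu.

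Many preNeu-only regions lay close to regions of another stage. The median distance to the nearest GMP region was 8975 bp and to the nearest matNeu region 4920 bp, and 13.4% lay within 1 kb of either, whereas 4.42% lay more than 50 kb from both. At the border of the rule, 35 regions were kept although a GMP or matNeu region ended within 10 bp, and 38 preNeu regions were left out for an overlap of 10 bp or less. The closest case inside was chr18:39250562-39250791 (230 bp, 2.49-fold), 1 bp from a region of another stage. The closest cases outside, chr13:63906762-63906957 (196 bp, 2.55-fold), chr2:120157853-120158631 (779 bp, 5.71-fold) and chr6:45269989-45270711 (723 bp, 2.94-fold), shared 1 bp with one.

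PreNeu-only regions lay almost entirely away from promoters. Of the 8457 on assembled chromosomes, 290 had their midpoint at a promoter of a protein-coding gene, taken as 2 kb before to 500 bp after a transcription start site (TSS): 3.43% (95% Wilson interval 3.06 to 3.84%). Intervals on shares of regions cover counting error only and not the spread between libraries. Introns held 3909 (46.2%) and the space outside protein-coding genes 3969 (46.9%), while 143 fell in coding exons, 139 in 3′ UTRs and 7 in 5′ UTRs. The promoter share was 3.53% for matNeu-only regions and 3.31% for those shared by preNeu and matNeu, from which the preNeu-only share differed by -0.0849 percentage points (-0.839 to 0.607) and 0.125 percentage points (-0.345 to 0.615). It was 10.1% for GMP-only regions, a difference of -6.68 percentage points (-7.44 to -5.93), 22.3% for regions shared by GMPs and preNeu, and 35.0% for those found at all stages. Among the narrow single-stage classes, GMP-only regions thus stood apart in promoter share, while the preNeu-only and matNeu-only shares were close. Each stage had 1 library. GMP-only regions were at promoters more often than preNeu-only regions in each of the 4 width classes under 2 kb, for example 11.3% against 3.62% from 500 to under 1000 bp. The median distance to the nearest TSS was 21939 bp, and 14.2% lay beyond 100 kb.

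**Figure D2:**
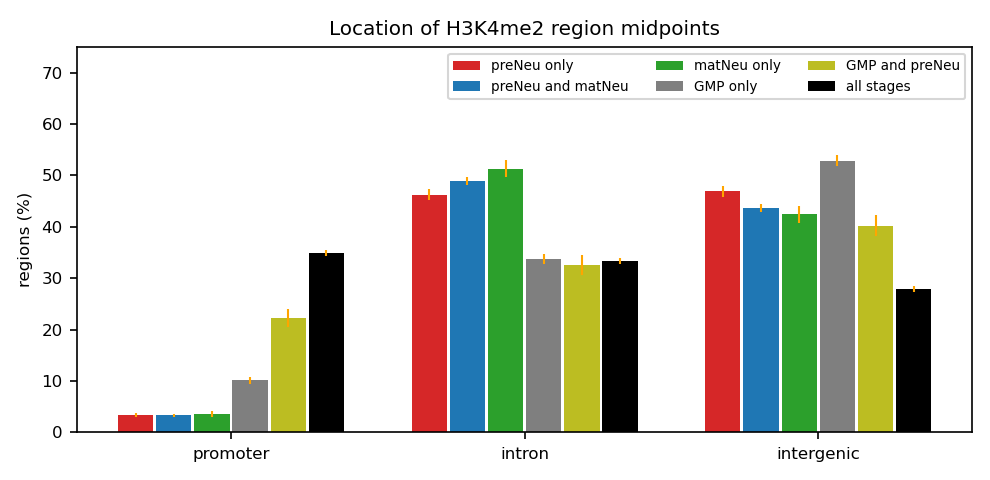
Percentage of H3K4me2 regions (y axis) with their midpoint at a promoter, in an intron or outside protein-coding genes, by stage class; orange lines are 95% Wilson intervals. PreNeu-only regions (red) sit at 3.43% promoters, next to the other neutrophil classes and below the classes that include GMPs.

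In base composition the preNeu-only regions (median GC content 45.8%) resembled those shared by preNeu and matNeu (45.4%) and were lower than GMP-only regions (48.3%) and those found at all stages (49.3%). At least 50% of the bases were annotated repeats in 838 of them (9.91%), against 1.24% at all stages and 23.1% for matNeu-only regions. On the X chromosome 314 of 1199 preNeu regions (26.2%) were preNeu-only, whereas the autosomes ranged from 14.1 to 18.9%. The sex of the mice is not stated in the labels used here. A further 13 regions lay on unplaced contigs and have no annotation.

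Cores of SPI1, C/EBP, RUNX and IRF factors were more frequent in preNeu-only regions than in windows 5 kb downstream. In the central 300 bp, the GAGGAAGT core of SPI1, the master factor of myeloid cells, was present in 6.31% (5.82 to 6.85%) of 8457 windows. Its share was 1.79% (1.52 to 2.09%) of windows displaced by 5 kb, 3.23% in GMP-only regions and 3.95% at all stages. The share was 6.29% (5.54 to 7.14%) in matNeu-only regions and 6.66% in regions shared by preNeu and matNeu. The TTGCNNAA core of the C/EBP family, which includes the granulocytic factors C/EBPα and C/EBPε, was present in 20.7% (19.9 to 21.6%). The share was 12.4% (11.7 to 13.1%) in displaced windows, 11.9% (11.2 to 12.6%) in GMP-only regions, 15.5% (14.3 to 16.7%) in matNeu-only regions and 19.9% (19.2 to 20.5%) in those shared by preNeu and matNeu. The preNeu-only share thus lay above the intervals of both other single-stage classes. For RUNX the shares were 26.4% in preNeu-only and 22.1% in displaced windows, and for IRF 38.5% and 34.4%. AP-1 (9.67% against 9.25%) and KLF (8.88% against 8.69%) had overlapping intervals. The AAATCA core of GFI1 was present in 18.8% (17.9 to 19.6%) of preNeu-only windows and in 20.9% (20.1 to 21.8%) of displaced windows. The displaced windows were added after the shares had been seen. A core is a run of letters and not a measured binding site.

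CHD4 peaks of wild type GMPs overlapped 1257 of the 8470 preNeu-only regions by at least 1 bp, or 14.8% (14.1 to 15.6%). The shares were 17.8% (16.99 to 18.6%) for GMP-only regions, 11.01% (10.02 to 12.1%) for matNeu-only regions, 26.7% (26.0 to 27.4%) for those shared by preNeu and matNeu, 28.5% (26.6 to 30.4%) for those shared by GMPs and preNeu and 35.4% (34.8 to 36.1%) for those at all stages. Wider regions overlap more peaks, so that the classes were also compared at equal width. From 250 to under 500 bp the share was 14.1% for preNeu-only, 14.0% for GMP-only, 16.1% for shared preNeu and matNeu regions and 22.7% at all stages. From 1000 to under 2000 bp it was 22.3% (19.3 to 25.6%), 38.8% (35.3 to 42.5%), 29.8% and 34.4%. Regions shared by GMPs and preNeu had 25.9% and 37.4% in these width classes. The intervals of preNeu-only and GMP-only regions overlapped in both classes below 500 bp, and the preNeu-only share was lower, without overlap, in the 3 classes from 500 bp. Per megabase covered there were 303 overlapped CHD4 peaks in preNeu-only regions, 359 in GMP-only, 239 in shared preNeu and matNeu, 544 in shared GMP and preNeu and 200.0 in regions of all stages. Each peak that touched a region by 1 bp was counted, and the median CHD4 peak was 335 bp wide. Narrow classes therefore gain from overlaps at their edges, and these densities do not compare classes of unlike width. With all 3 H3K4me2 lists held to a −log10 q of 5, which makes 7064 mostly other regions preNeu-only, the share was 36.5%. It was 45.3% of the 117 regions left by lists of equal covered length.

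**Figure D3:**
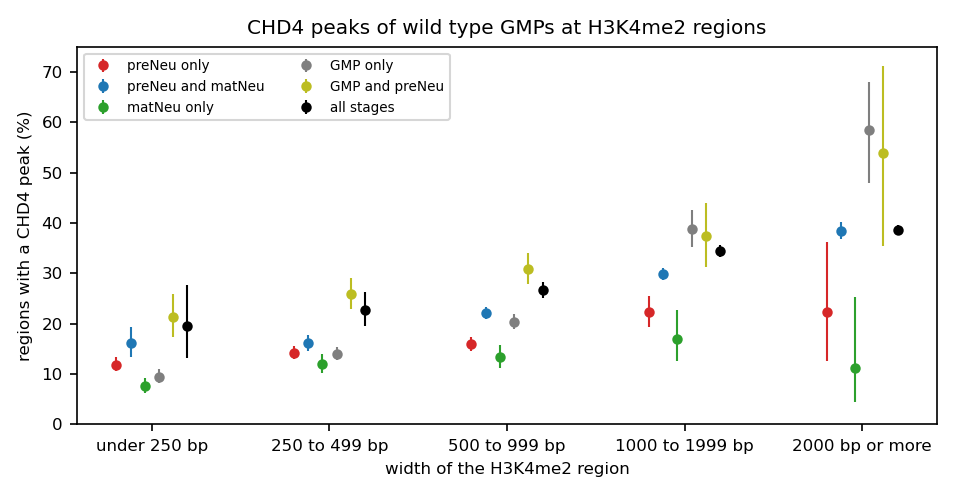
Percentage of H3K4me2 regions overlapped by a CHD4 peak of wild type GMPs (y axis) in 5 classes of region width (x axis), by stage class; lines are 95% Wilson intervals. PreNeu-only regions (red) rise from 11.8% under 250 bp to 22.3% from 1000 to under 2000 bp.

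The 1318 CHD4 peaks at preNeu-only regions had a median enrichment of 7.76-fold, close to the 7.72-fold of all 35790 CHD4 peaks. In Gfi1-/- GMPs 224 of the 1318 were overlapped by a CHD4 peak and are called kept, or 16.995% (15.1 to 19.1%). The kept share was 18.5% (18.1 to 18.9%) of all CHD4 peaks and 27.9% (25.8 to 30.1%) of those at GMP-only regions. The strong peaks carried this share. In the top quartile of CHD4 enrichment (12.6 to 100.5-fold) 194 of 321 were kept at preNeu-only regions (60.4%, 55.0 to 65.6%). The value elsewhere, 62.5%, lay inside that interval. In the lowest quartile 1 of 304 was kept (0.329%, 0.0581 to 1.84%), against 2.104% (1.81 to 2.44%) elsewhere, and the intervals overlapped. In the second quartile the order was reversed, at 2.09% (1.02 to 4.25%) against 1.53% (1.30 to 1.80%) elsewhere. The Gfi1-/- list was shorter (7316 peaks), with 1 library per genotype and no depth given, so that a lost peak and a weaker library cannot be told apart.

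The 5 preNeu-only regions under the strongest CHD4 peaks all kept a CHD4 peak in Gfi1-/- GMPs, and their H3K4me2 enrichment in preNeu was between 2.44 and 3.82-fold. The strongest lay in an intron of Tnip3, a negative regulator of NF-κB signalling, at chr6:65613810-65614293 (2.73-fold), under a CHD4 peak of 71.05-fold whose summit at 65614480 was outside it. The second was at chr17:79298696-79298907, 54206 bp downstream of the TSS of Cdc42ep3, a binding partner of the small GTPase CDC42 (CHD4 63.3-fold, summit outside the region). The third, at chr11:16669758-16670221, lay 57 bp from a GMP region and 82214 bp upstream of Egfr, a receptor listed below 1 TPM in every library (CHD4 63.0-fold). The others lay in introns of Stx7, a syntaxin of endosomal fusion (chr10:24160246-24160643, CHD4 54.3-fold), and of Nrp1, a co-receptor of semaphorins and VEGF (chr8:128490607-128492026, CHD4 54.2-fold). Over all 1257 regions with a CHD4 peak, the summit lay inside the region in 986. The RNA of Nrp1 stood at 32.4, 29.8 and 28.4 TPM in the GMP libraries, 17.6, 11.6 and 15.7 TPM in the preNeu libraries and 3.42, 1.76 and 0.955 TPM in the matNeu libraries, and fell at each step. It had a log2 change of -0.98 ± 0.30 SE, adjusted p = 0.0163, in preNeu against GMP and a log2 change of -2.45 ± 0.30 SE, adjusted p = 3.41e-05, in matNeu against preNeu. With centred libraries the first of these was -0.35. The RNA of Cdc42ep3 stood at 82.4, 69.6 and 64.5 TPM in the GMP libraries, 120.2, 126 and 124 TPM in the preNeu libraries and 221, 236 and 222 TPM in the matNeu libraries, without overlap between successive stages.

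The ATAC-seq list, in which the titled preNeu and matNeu files hold the same 16307 peaks, so that its stage is not settled, overlapped 26 preNeu-only regions, or 0.307% (0.210 to 0.449%). The share was 8.13% (7.71 to 8.57%) for regions shared by preNeu and matNeu, 3.14% (2.61 to 3.77%) for matNeu-only regions and 41.2% (40.6 to 41.8%) at all stages. Low shares were also found in the other classes without matNeu, 0.382% (0.271 to 0.539%) for GMP-only regions and 0.359% (0.182 to 0.706%) for those shared by GMPs and preNeu. The preNeu-only share differed from these by -0.0749 percentage points (-0.259 to 0.106) and -0.0518 percentage points (-0.413 to 0.175), intervals that include 0. From 1000 to under 2000 bp of width it was 0.880% (0.404 to 1.91%) for preNeu-only and 8.29% (7.55 to 9.08%) for shared preNeu and matNeu regions. The share was under 1% in every width class of preNeu-only regions. It was 5.18% (366 of 7064, mostly other regions) with all 3 H3K4me2 lists held to a −log10 q of 5 and 20.5% (24 of 117) with lists of equal covered length.

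The 10 preNeu-only regions of highest H3K4me2 enrichment ranged from 5.50 to 8.20-fold. The first was chr2:168131253-168131438 (186 bp, 8.20-fold), made entirely of annotated repeat, 50341 bp downstream of the TSS of Pard6b, a cell polarity gene that was listed between 0 and 0.396 TPM over the 9 libraries. The second, chr2:25552073-25552398 (326 bp, 7.39-fold), lay 5295 bp upstream of Traf2, an adaptor of TNF receptors. The third, chr11:60823143-60824220 (1078 bp, 6.77-fold), lay 6950 bp upstream of Dhrs7b, a dehydrogenase gene. The next were nearest to Smarcc2, a subunit of SWI/SNF remodelling complexes (6.16-fold), Prkci, an atypical protein kinase C (5.97-fold), Tfpi, an inhibitor of the tissue factor pathway (5.79-fold and entirely repeat), Rubcnl (5.77-fold), Pabpc2 (5.76-fold), Atf7ip (5.54-fold) and Zfp62 (5.50-fold). Only the Atf7ip region among these 10 was at a promoter, with its midpoint 8 bp from a TSS, and those of Pard6b, Traf2 and Zfp62 were overlapped by CHD4. The RNA of these genes moved in different directions. Prkci rose in preNeu against GMP (log2 change 0.74 ± 0.25 SE, adjusted p = 0.0265) and fell in matNeu (log2 change -2.51 ± 0.25 SE, adjusted p = 7.18e-06). Tfpi stood at 66.4, 63.97 and 70.2 TPM in the GMP libraries, 2.77, 3.90 and 3.71 TPM in the preNeu libraries and 0, 0.762 and 0 TPM in the matNeu libraries and fell in preNeu (log2 change -3.94 ± 0.28 SE, adjusted p = 1.36e-06). Traf2 stood at 57.6, 58.9 and 66.5 TPM in GMP and 55.7, 61.1 and 68.9 TPM in preNeu, groups that overlapped (log2 change 0.02 ± 0.15 SE, adjusted p = 0.931).

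The preNeu-only regions had 4892 nearest protein-coding genes, of which 4888 were in the RNA table and 3488 passed a filter of 1 TPM in at least 3 libraries, out of 13061 genes tested. Distances say nothing of which gene a region acts on. The nearest genes are protein-coding by rule, whereas the 13061 tested genes were filtered on TPM alone and not on gene type. The backgrounds of all tested genes given below may thus hold genes that could not be nearest. Nearest genes of the other region classes do not differ in this way. For 3107 genes a single region was nearest, for 966 there were 2, and for 819 there were 3 or more. In every GMP library the median log2(TPM + 1) of the tested nearest genes was 0.08 to 0.09 above that of all tested genes, and the gap was 0.33 to 0.37 in the preNeu libraries and 0.42 to 0.56 in the matNeu libraries, with no overlap between stages. Over all tested genes the median of the log2 changes was -0.52 from GMP to preNeu and -0.32 from preNeu to matNeu. The library medians of log2(TPM + 1) ran from 4.45 to 4.53 in GMP, from 3.76 to 3.95 in preNeu and from 3.03 to 3.14 in matNeu. These shifts enter the change of each gene. Centring each library on its median turned the direction of no named gene called in either of these steps.

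In preNeu against GMP 734 of the 3488 tested nearest genes rose (21.04%), where 14.7% of all tested genes were called higher, and 1430 fell (41.0%), where 44.3% of all were called lower (limma, Benjamini-Hochberg adjusted p under 0.05). With each library centred on its median the split turned over, with 1352 higher and 771 lower among nearest genes. Of the calls 33.9% were higher before centring and 63.7% after. The share of nearest genes called higher stayed above that of all genes (38.8% against 29.3% when centred). It was not particular to preNeu-only regions. For nearest genes of regions shared by preNeu and matNeu it was 23.1% (41.7% centred), and for matNeu-only regions 29.6% (51.2% centred). For GMP-only regions it was 16.8% (32.3% centred). The median log2 change was -0.36 for nearest genes and -0.52 for all tested genes. In matNeu against preNeu 835 rose (23.9%, all genes 22.9%) and 1520 fell (43.6%, all genes 39.8%), medians -0.39 and -0.32; centred, 1492 rose and 957 fell (35.5% of calls higher before centring, 60.9% after). In matNeu against GMP 904 rose (25.9%, all genes 22.8%) and 1871 fell (53.6%, all genes 54.1%); centred, 1722 rose and 1002 fell (32.6% of calls higher, then 63.2%). With lists of equal covered length the split turned over as well: of the 101 tested nearest genes 42.6% were higher and 29.7% lower in preNeu than in GMP. Of the 6 shares first given, that of genes higher in preNeu than in GMP lay farthest from its background.

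The stage pattern that mirrors the regions, RNA higher in preNeu than in GMP and lower again in matNeu, was called for 315 of the 3488 nearest genes, 9.03% (8.12 to 10.03%), against 5.63% of all tested genes and 4.39% (3.995 to 4.82%) of tested genes nearest to no preNeu-only region. Put the other way, 315 of the 735 genes with this pattern (42.9%) were nearest to such a region, as were 26.7% of all tested genes. The share was 7.43% (6.38 to 8.62%) of genes with 1 region and 11.4% (9.23 to 13.9%) with 2. It was 11.5% (9.12 to 14.3%) with 3 to 5 and 12.6% (7.38 to 20.8%, 12 of 95 genes) with more, intervals that overlap that with 2. It was also 8.44% (7.69 to 9.26%) for the nearest genes of regions shared by preNeu and matNeu and 8.09% (6.92 to 9.43%) for those of matNeu-only regions, intervals that overlap that of preNeu-only regions, and 6.53% (5.64 to 7.54%) for GMP-only regions. A gene can be nearest to regions of several classes, and genes are not replicates. The backgrounds of all tested genes and of genes nearest to no such region were not limited to protein-coding genes. The share was 17.8% of the 101 tested nearest genes left by lists of equal covered length. For the 998 nearest genes of regions with a CHD4 peak (723 tested) the share was 7.47% (5.77 to 9.62%).

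**Figure D4:**
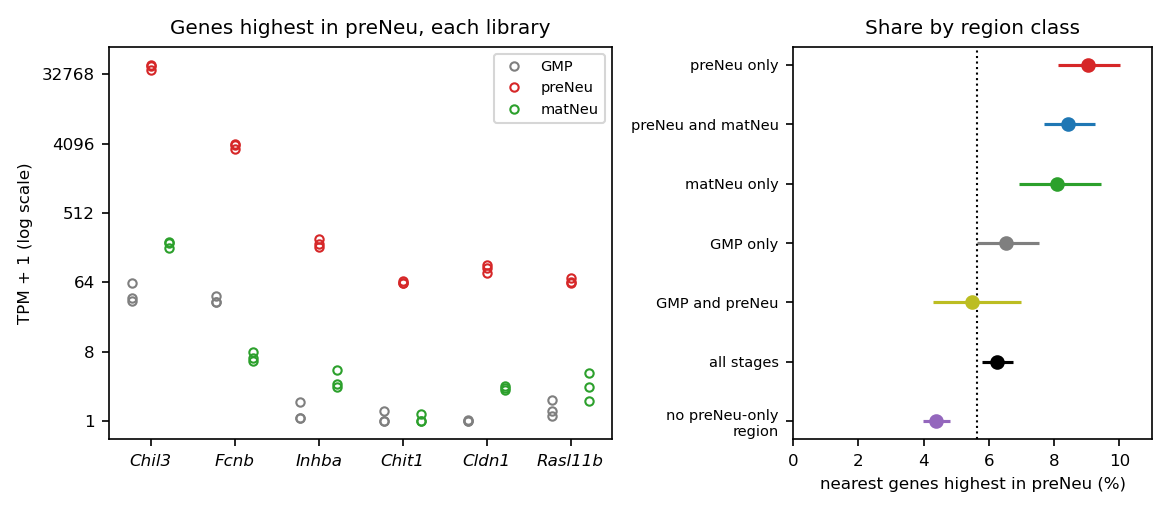
Left, TPM + 1 on a log axis in each of the 9 RNA libraries (open circles, 3 per stage) for the 6 nearest genes of preNeu-only regions with the clearest maximum in preNeu. The preNeu circles lie above all GMP and matNeu circles for every gene, which follows from how the genes were chosen. Right, percentage of tested nearest genes called highest in preNeu by region class with 95% Wilson intervals, 9.03% for preNeu-only regions against the dotted line at 5.63% for all tested genes.

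Inhba, which encodes the βA subunit of activins, had the second highest number of preNeu-only regions, 18, and was among the genes with the clearest maximum in preNeu. Its RNA stood at 0.783, 0.102 and 0.119 TPM in the GMP libraries, 185, 236 and 201 TPM in the preNeu libraries and 1.75, 2.03 and 3.62 TPM in the matNeu libraries. The preNeu libraries lay far above both others (log2 change 7.32 ± 0.28 SE, adjusted p = 1.79e-08 against GMP, and log2 change -5.94 ± 0.28 SE, adjusted p = 2.75e-08 in matNeu against preNeu). The 18 regions spread from 229112 bp upstream to 459898 bp downstream of the TSS at chr13:16014475, a stretch with no other protein-coding gene (Gli3, the next, ends 284449 bp upstream of the TSS). Of these, 17 lay outside genes and 1 in the 3′ UTR of Inhba. The most enriched was chr13:15782541-15782937 (4.52-fold), and the next chr13:15985613-15986599, 25745 bp upstream (4.13-fold, under a CHD4 peak of 9.93-fold). CHD4 peaks overlapped 6 of the 18, of which 1, at chr13:15976494-15976965 with a CHD4 enrichment of 32.5-fold, was kept in Gfi1-/- GMPs. Within 500 kb of the TSS on either side the preNeu list held 54 regions, the matNeu list 45 and the GMP list 19. The most enriched preNeu regions there, beginning 823 bp upstream (14.5-fold) and 1177 bp downstream (11.8-fold) of the TSS, were not preNeu-only. They overlapped matNeu regions of 9.86 and 7.74-fold and GMP regions of 4.74 and 5.53-fold.

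**Figure D5:**
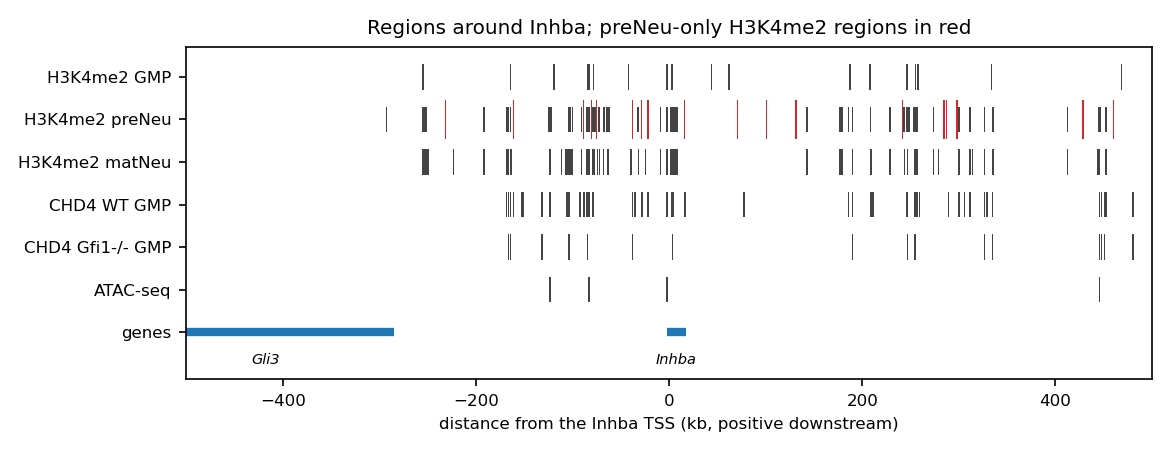
Regions of each list (rows) by distance in kb from the Inhba TSS (x axis, positive downstream), drawn at least 1.5 kb wide to be visible; tall red bars are the 18 preNeu-only H3K4me2 regions and blue bars the protein-coding genes. The preNeu row holds 54 regions, the matNeu row 45 and the GMP row 19.

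The other 5 genes with the clearest preNeu maximum included genes of secreted neutrophil proteins. Chil3, a chitinase-like secreted protein of neutrophil precursors, stood at 61.9, 38.9 and 35.5 TPM in the GMP libraries, 41328, 37138 and 43422 TPM in the preNeu libraries and 205, 178 and 217 TPM in the matNeu libraries. Chil3 had a log2 change of 9.81 ± 0.18 SE, adjusted p = 1.18e-10, in preNeu against GMP. Its region, chr3:106154550-106155651 (1102 bp, 2.38-fold), lay 5339 bp upstream of the nearest TSS, in an annotated intron. Fcnb, the lectin ficolin B, stood at 34.6, 34.2 and 42.2 TPM in the GMP libraries, 4049, 3902 and 3532 TPM in the preNeu libraries and 5.17, 6.85 and 5.68 TPM in the matNeu libraries. Fcnb had a log2 change of 6.66 ± 0.14 SE, adjusted p = 2.43e-10, in preNeu against GMP, with 2 regions 15972 and 17795 bp upstream. Chit1, chitotriosidase, was listed at 62.5, 61.1 and 66.3 TPM in preNeu libraries and at no more than 0.372 TPM in any other, with 1 region 4328 bp upstream. Cldn1, a tight junction claudin, stood at 0, 0.0404 and 0 TPM in the GMP libraries, 98.1, 82.8 and 108 TPM in the preNeu libraries and 1.58, 1.73 and 1.88 TPM in the matNeu libraries and had 6 regions between 14330 bp upstream and 128255 bp downstream. Rasl11b, a small GTPase of the RAS superfamily, stood at 0.188, 0.911 and 0.372 TPM in the GMP libraries, 62.1, 71.1 and 63.0 TPM in the preNeu libraries and 0.840, 1.78 and 3.29 TPM in the matNeu libraries and had 1 region 65500 bp downstream of its TSS. All 6 genes, Inhba included, were chosen for their large rise and fall around preNeu. That their preNeu libraries overlapped those of neither other stage follows from this choice.

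Further genes with a large rise in preNeu against GMP did not all fall again. Itgb2l, a β2-integrin-like chain, stood at 1.42, 0.458 and 0.141 TPM in the GMP libraries, 879, 951 and 1048 TPM in the preNeu libraries and 228, 293 and 191 TPM in the matNeu libraries. Itgb2l had a log2 change of 9.23 ± 0.26 SE, adjusted p = 1.99e-09, in preNeu against GMP. St3gal5, a sialyltransferase that makes the ganglioside GM3, rose to 502, 516 and 574 TPM (log2 change 8.61 ± 0.24 SE, adjusted p = 1.99e-09). Plbd1, a phospholipase B-like protein, stood at 2.41, 2.39 and 2.18 TPM in the GMP libraries, 971, 931 and 1047 TPM in the preNeu libraries and 1119.5, 1222 and 1339 TPM in the matNeu libraries. Plbd1 had a log2 change of 8.21 ± 0.11 SE, adjusted p = 2.56e-11, in preNeu against GMP. It rose again in matNeu (log2 change 0.32 ± 0.11 SE, adjusted p = 0.0293). Ly6g, the surface antigen recognised by the Gr-1 antibody used in the sort, stood at 0, 1.06 and 0 TPM in the GMP libraries, 380.3, 275 and 285 TPM in the preNeu libraries and 469, 593 and 351 TPM in the matNeu libraries. Ly6g had a log2 change of 7.93 ± 0.29 SE, adjusted p = 1.25e-08, in preNeu against GMP, and its matNeu libraries overlapped those of preNeu. Its region, chr15:75166746-75167875 (3.61-fold), carried a CHD4 peak of 11.1-fold. Olfml2b, an olfactomedin-like matrix protein with 5 regions, stood at 0.0876, 0 and 0.0579 TPM in the GMP libraries, 228, 225 and 259 TPM in the preNeu libraries and 10.4, 13.01 and 8.999 TPM in the matNeu libraries, and 4930438A08Rik reached 296, 326 and 358 TPM in preNeu.

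Regions that appeared only in preNeu were also nearest to genes that fell from GMP to preNeu, among them genes of other myeloid lineages. Bex6 had the largest fall (log2 change -6.58 ± 0.33 SE, adjusted p = 1.39e-07; 134, 101 and 128 TPM in the GMP libraries, 0, 0 and 1.01 TPM in the preNeu libraries and 1.92, 1.39 and 0.748 TPM in the matNeu libraries), and 1 of its 3 regions was at its promoter. F13a1, the coagulation factor chain of monocytes and macrophages, stood at 1005, 893 and 821 TPM in the GMP libraries, 9.70, 10.3 and 20.0 TPM in the preNeu libraries and 2.63, 1.58 and 4.98 TPM in the matNeu libraries. F13a1 had a log2 change of -6.05 ± 0.32 SE, adjusted p = 2.04e-07, in preNeu against GMP and had 5 regions. Irf8, the factor that directs progenitors towards monocytes and dendritic cells, stood at 548, 509 and 483 TPM in the GMP libraries, 10.8, 12.7 and 13.9 TPM in the preNeu libraries and 6.93, 7.599 and 19.2 TPM in the matNeu libraries. Irf8 had a log2 change of -5.26 ± 0.30 SE, adjusted p = 3.49e-07, in preNeu against GMP, with 1 region 13653 bp downstream of its TSS. Prg2 and Epx, granule proteins of eosinophils, fell as well (log2 change -5.48 ± 0.19 SE, adjusted p = 8.2e-09, and log2 change -5.19 ± 0.28 SE, adjusted p = 1.94e-07). Muc13, a membrane mucin, Tifab and BC035044 had log2 changes of -5.27, -5.23 and -5.34, all past the threshold. Regions called only in preNeu were thus nearest to genes of both directions of RNA change. A missing peak call in the 1 GMP library is not a measured gain of H3K4me2. The Irf8 region, for example, was 2.74-fold enriched and lay 605 bp from a GMP region. In these bulk libraries fewer cells of a type and less RNA per cell cannot be told apart.

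Gene lists compiled for this tissue were set beside the preNeu-only regions. Of all tested genes 26.7% were nearest to such a region. Of 12 secondary granule genes 3 (Chil3, Fcnb and Orm1) were nearest to such a region, and all 3 were called highest in preNeu, as were 8 of the whole list. Orm1, an acute phase glycoprotein, stood at 0.481, 0 and 1.58 TPM in the GMP libraries, 151, 111 and 99.7 TPM in the preNeu libraries and 3.42, 5.93 and 3.62 TPM in the matNeu libraries. Of 25 mitosis genes 8 were nearest to a region; 6 of the 8 rose in preNeu and all 8 fell in matNeu, while 21 and 25 of the 25 did so. Mki67, the proliferation antigen Ki-67, stood at 72.4, 73.2 and 64.3 TPM in the GMP libraries, 186, 194 and 238 TPM in the preNeu libraries and 4.73, 3.303 and 5.56 TPM in the matNeu libraries. Mki67 had a log2 change of 1.54 ± 0.18 SE, adjusted p = 4.69e-05, in preNeu against GMP. Kif11, a spindle kinesin, Nusap1, a spindle protein, and Cenpf, of the kinetochore, changed by 1.34, 1.74 and 1.80 on the log2 scale from GMP to preNeu and by -7.12, -6.87 and -5.16 from preNeu to matNeu. Of 8 primary granule genes 3 were nearest to a region, and all 3 fell in preNeu, while of all 8 there were 6 that fell and 1 that rose. They were Ctsc (log2 change -3.11 ± 0.22 SE, adjusted p = 1.39e-06), Srgn (log2 change -1.77 ± 0.12 SE, adjusted p = 1.36e-06) and Prss57 (log2 change -0.75 ± 0.27 SE, adjusted p = 0.0322), the last with its region at the promoter, 126 bp from the TSS. With libraries centred on their medians the log2 change of Prss57 was -0.12. None of the 10 matNeu markers was nearest to one. Of the 10 GMP markers 5 were, with 14 regions, and all 5 fell in preNeu, as did the whole list. Of the monocyte markers 4 of 5 were nearest to a region (14 regions), of the eosinophil and basophil markers 3 of 5, and all of these fell too, as did 5 and 4 of the 5 genes in each list. Of the 10 preNeu markers 3 were nearest to a region and all 3 were highest in preNeu, as were all 10. Of 5 T cell markers 1 was nearest to a region and fell in preNeu, as did 1 of the 3 tested in that list. Of 10 gelatinase granule and secretory vesicle genes 1 was nearest and rose in preNeu, as did all 10. Of 5 erythroid markers 1 was nearest and did not pass the filter on low values.

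Of 37 myeloid transcription factors 19 were nearest to a total of 59 preNeu-only regions, and of these 19 genes 7 rose and 10 fell in preNeu against GMP, with 4 called highest in preNeu. In the whole list 14 rose, 16 fell and 5 were highest in preNeu. Id2, an inhibitor of E proteins, stood at 11.3, 7.25 and 9.40 TPM in the GMP libraries, 396, 415 and 386 TPM in the preNeu libraries and 104, 96.7 and 121 TPM in the matNeu libraries. Id2 had a log2 change of 5.29 ± 0.16 SE, adjusted p = 3.86e-09, in preNeu against GMP and had 8 regions from 45086 to 317267 bp upstream, 6 of them with a CHD4 peak. The strongest of these peaks, 42.2-fold at the region chr12:25141909-25142543, was kept in Gfi1-/- GMPs. Klf5, a Krüppel-like factor, stood at 0.192, 0.249 and 0.850 TPM in the GMP libraries, 65.3, 79.4 and 69.0 TPM in the preNeu libraries and 10.7, 21.9 and 31.3 TPM in the matNeu libraries. Klf5 had a log2 change of 5.68 ± 0.35 SE, adjusted p = 5.29e-07, in preNeu against GMP, with 3 regions 150938 to 170235 bp downstream of its TSS. Meis1, a homeobox factor of stem and progenitor cells, fell in preNeu (log2 change -4.76 ± 0.39 SE, adjusted p = 3.75e-06), and so did Myb, needed for progenitor growth (log2 change -1.78 ± 0.23 SE, adjusted p = 8e-05), which had 4 regions.

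Of 22 receptors for chemoattractants and cytokines 7 were nearest to a region. Of these 3 rose and 2 fell in preNeu against GMP, and 6 rose from preNeu to matNeu, while of all 22 there were 12, 8 and 19. The decoy receptor Il1r2 stood at 1.50, 4.80 and 0 TPM in the GMP libraries, 124, 164 and 165 TPM in the preNeu libraries and 2774, 2474 and 2774 TPM in the matNeu libraries and had 3 regions. Fpr2, a formyl peptide receptor, was listed at 0 in all GMP libraries, at 93.5, 93.4 and 73.4 TPM in preNeu and at 274, 326 and 252 TPM in matNeu. Ptafr, the receptor of platelet-activating factor, rose at both steps (log2 change 3.07 ± 0.18 SE, adjusted p = 3.85e-07, then log2 change 2.52 ± 0.18 SE, adjusted p = 4.99e-07). Tlr2, a receptor of bacterial lipoproteins, fell and then rose (log2 change -1.25 ± 0.21 SE, adjusted p = 0.000433 and log2 change 5.36 ± 0.21 SE, adjusted p = 6.48e-09). Of 20 genes of actin and migration 6 were nearest to a region. Of these 3 rose and 1 fell in preNeu, while of all 20 there were 14 that rose and 1 that fell. Fgr, a SRC-family kinase of integrin signalling, stood at 0.930, 0.847 and 0.635 TPM in the GMP libraries, 216, 254 and 258 TPM in the preNeu libraries and 779, 829 and 801 TPM in the matNeu libraries. Fgr had a log2 change of 7.08 ± 0.13 SE, adjusted p = 1.18e-10, in preNeu against GMP, with 1 region 5558 bp upstream. Evl, an actin-binding protein with 5 regions, fell (log2 change -2.46 ± 0.34 SE, adjusted p = 0.000131).

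The densest accumulation of preNeu-only regions lay in the immunoglobulin heavy chain locus. The 1 Mb window from chr12:115000000-115999999 held 36 of them, against 22 in the next window, and Zfp386, the nearest protein-coding TSS, was assigned 40 regions up to 1240512 bp away, the most of any gene. The stretch that holds the 194 annotated V segments and pseudogenes (chr12:113572927-116010093) held 41 preNeu-only regions with enrichments from 2.39 to 4.94-fold; 9 had a CHD4 peak and none an ATAC-seq peak. Only 3 of the 41 touched a V segment, whereas 35 of the 55 regions shared there by preNeu and matNeu did. The span held 0.484% of preNeu-only, 0.481% of matNeu-only, 0.356% of shared preNeu and matNeu, 0.0955% of GMP-only and 0.111% of all-stage regions. The locus was singled out after its counts were seen. B cell markers were measured beside it. Cd79a, a signalling chain of the B cell receptor with a preNeu-only region at its promoter, stood at 0.207, 0.603 and 0 TPM in the GMP libraries, 5.68, 8.58 and 6.69 TPM in the preNeu libraries and 16.2, 18.6 and 33.1 TPM in the matNeu libraries. Cd79a had a log2 change of 2.66 ± 0.32 SE, adjusted p = 5.1e-05, in preNeu against GMP. Ms4a1 (CD20) stood at 0.523, 0.421 and 0.523 TPM in the GMP libraries, 2.13, 2.22 and 2.84 TPM in the preNeu libraries and 8.33, 11.5 and 16.0 TPM in the matNeu libraries. Ms4a1 had a log2 change of 1.19 ± 0.28 SE, adjusted p = 0.00372, in preNeu against GMP, and had a preNeu-only region in an intron under a CHD4 peak of 45.5-fold that was kept. In both genes the libraries of the 3 stages did not overlap, and the matNeu libraries were the highest. Pax5, the transcription factor of B cells, was listed at 0 in all GMP libraries, at 0, 1.58 and 2.86 TPM in preNeu and at 3.06, 1.46 and 1.66 TPM in matNeu. Cd79b, the partner chain of Cd79a, ran the other way, at 93.7, 77.9 and 87.6 TPM in GMP, 17.3, 27.4 and 18.5 TPM in preNeu and 27.3, 25.1 and 53.9 TPM in matNeu. The part of B cells in these regions was not tested.

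Of the remaining genes with the most preNeu-only regions, Nfia, a nuclear factor I gene, had 14, all in introns. Nfia RNA stood at 1.76, 0.448 and 2.06 TPM in the GMP libraries, 2.00, 0.389 and 1.73 TPM in the preNeu libraries and 9.31, 7.85 and 9.95 TPM in the matNeu libraries, low in both early stages. Ednra, an endothelin receptor, had 13 regions and stood at 0.665, 0.898 and 0 TPM in the GMP libraries, 3.304, 3.95 and 5.56 TPM in the preNeu libraries and 1.24, 2.72 and 1.32 TPM in the matNeu libraries. Ednra had a log2 change of 1.82 ± 0.34 SE, adjusted p = 0.000885, in preNeu against GMP. From preNeu to matNeu it had a log2 change of -0.95 ± 0.34 SE, adjusted p = 0.0297, which was -0.19 with centred libraries. Pde4d, a cAMP phosphodiesterase, had 13 regions, 12 of them in introns and 5 with a CHD4 peak. Its RNA stood at 68.5, 67.7 and 72.9 TPM in the GMP libraries, 63.3, 76.9 and 56.8 TPM in the preNeu libraries and 2.07, 2.15 and 2.05 TPM in the matNeu libraries. It did not pass the test from GMP to preNeu (log2 change -0.10 ± 0.17 SE, adjusted p = 0.649) and fell in matNeu (log2 change -4.42 ± 0.17 SE, adjusted p = 5.55e-09). The genes with most regions thus differed in their RNA, with a preNeu maximum in Inhba, a fall from preNeu to matNeu in Pde4d and a rise in Nfia. Zfp386 fell at both steps (log2 change -1.78 ± 0.27 SE, adjusted p = 0.000261 and log2 change -1.42 ± 0.27 SE, adjusted p = 0.000912).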

How the data were processed

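Per the labels, wild type and Gfi1-/- C57BL/6 bone marrow cells were sorted and profiled by ChIP-seq, ATAC-seq and RNA-seq; the submitters' processing notes name Trimmomatic 0.36, BWA 0.7.17, MACS2 2.1.0, kallisto 0.44.0 and mm10, whereas the extract protocol names Tophat and HTSeq for RNA, so the quantifier behind the TPM is not settled. The authors deposited peak lists whose values are fold enrichment ratios over control and −log10 q, 1 list per sample, and a table of TPM. The H3K4me3 and GFI1 lists run past the ends of GRCm38 chromosomes and were not used. Coordinates keep the deposited build and are written 1-based.

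Region classes, Wilson and Newcombe intervals, GENCODE M21 annotation of midpoints and GRCm38 sequence were computed in Python 3.11.15 (numpy 2.4.6, pandas 2.3.3, scipy 1.17.1, pysam 0.24.0). The nearest gene is that of the nearest protein-coding TSS to a midpoint. RNA was tested with limma 3.58.1 (R 4.3.3; eBayes with trend) on log2(TPM + 1), which understates changes of low genes, in 1 fit over 9 libraries and 13061 genes with at least 1 TPM in 3 libraries, Benjamini-Hochberg over all of them; the script was tested on simulated data. TPM keep no depth, and the count test of the study could not be used. Members, gene lists and tests were chosen with earlier results of these data known. Named were the 10 regions of highest fold, the 5 under the highest CHD4 peaks, the 5 genes with most regions, the 8 largest rises and falls in preNeu against GMP without overlap, the 6 clearest preNeu maxima and up to 4 genes per list. Alternatives changed thresholds, list lengths, overlap, windows, gene assignment, pseudocount, filter, scaling, fit and libraries. A marker gene and 2 of the region sequences chosen by the rule are not reported here.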

Additional observations from a re-analysis of the deposited data

How the results depend on the processing

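With all 3 lists held to a −log10 q of 5, which selects mostly other regions, 5.44% were at promoters, 36.5% with CHD4 and 5.18% with ATAC-seq. With preNeu regions held to it against all others, 326 remained (4.62% at promoters, 17.8% with CHD4 and 0.614% with ATAC-seq). With equal numbers per list, 3758 remained (2.99% at promoters, 19.2% with CHD4 and 0.559% with ATAC-seq), and with lists of equal covered length, a setting added after seeing the data, 117 (3.42%, 45.3% and 20.5%). At least 1 kb from other stages, 3.22% at promoters, 14.3% with CHD4 and 0.286% with ATAC-seq; with sharing only from 50% overlap, 3.64% at promoters, 15.6% with CHD4 and 0.336% with ATAC-seq. Promoters of 1 kb on either side held 2.62%; CHD4 summits lay inside 11.6%, and CHD4 peaks at a −log10 q of 5 overlapped 14.1%. Core shares follow window length: in 200 bp 12.97% (GFI1), 4.58% (SPI1), 14.6% (C/EBP), 18.6% (RUNX), 27.4% (IRF), 6.62% (AP-1), 6.09% (KLF), and in 600 bp 34.7% (GFI1), 10.1% (SPI1), 33.4% (C/EBP), 44.5% (RUNX), 60.8% (IRF), 18.2% (AP-1), 16.5% (KLF).

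Counts of called nearest genes (higher and lower in preNeu against GMP, in matNeu against preNeu and in matNeu against GMP, then highest in preNeu) were 734, 1430, 835, 1520, 904, 1871 and 315. They became 1352, 771, 1492, 957, 1722, 1002 and 360 with centred libraries, 1203, 855, 1131, 1212, 1459, 1274 and 428 with quantile normalization, 486, 1009, 589, 1194, 716, 1636 and 193 with a log2 change of at least 1, 463, 908, 516, 957, 545, 1192 and 209 with genes whose body or promoter held a region (2242 tested), 47, 109, 62, 119, 69, 134 and 21 for regions at a −log10 q of 5 (249 tested), 431, 803, 495, 871, 551, 1050 and 180 for equal numbers per list (1996 tested) and 43, 30, 37, 40, 45, 33 and 18 for equal covered length (101 tested). In that last setting 42.6% were higher and 29.7% lower in preNeu than in GMP, against 14.7% and 44.3% of all tested genes, and 17.8% were highest in preNeu, against 5.63%. The cause was not tested. Leaving out each library in turn gave 629 to 741, 1163 to 1466, 729 to 834, 1396 to 1512, 823 to 907, 1700 to 1870 and 248 to 324. The replicate numbers did not pair the libraries (correlations of same-numbered deviations from -0.0394 to 0.123), and with a replicate block the counts were 728, 1417, 838, 1509, 895, 1872 and 301. All other settings moved no count by over 1.5 times. The peak lists carry no depth, and 1 library per ChIP condition allows no replicate error on a region.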
